A study of Homo sapiens with 8 samples.

Results

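The interferon-stimulated and antigen presentation genes described here are 37 genes chosen by name, of which 21 are antiviral effectors, 7 are regulators and sensors of the interferon response, and 9 act in class I antigen presentation. They were found on the array through the gene symbol of each probe, with older symbols brought up to date, and 32 of the 37 had at least 1 probe, out of 15550 genes with a probe. Of these, 26 had a probe detected on at least 4 of the 8 arrays and were tested, out of 10964 genes tested in all. OAS3, STAT2, USP18, HLA-B and HLA-F had no probe among those used and were not analysed here.

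All arrays were of A549, a long-established cell line from a human lung adenocarcinoma, carrying the hairpin labelled shGLP, which is directed at GLP, the histone methyltransferase encoded by EHMT1. RNA was taken after 24 h of 100 nM dexamethasone, a synthetic glucocorticoid, and at 0 h, with 4 arrays at each time on an Illumina HumanRef-8 v3 BeadChip. Cells without this hairpin were not analysed here, so no value below can be set against cells with normal GLP, and 24 h in culture and 24 h of hormone cannot be told apart. The sources used here do not say whether the hairpin cells are a pool or 1 clone, or what the cells harvested at 0 h were given. Nothing in the labels says that the arrays of a time came from separate cultures, so the p-values measure the spread between these arrays, which may be technical.

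Interferons bind receptors at the cell surface and activate kinases such as JAK1, which pass the signal to transcription factors. Type I and type III interferons assemble a complex with IRF9 as its DNA-binding subunit, which binds the interferon-stimulated response element (ISRE) in promoters, whereas interferon gamma acts at the gamma-activated site (GAS). The genes so induced block viral entry, translation and replication, and raise class I presentation, in which proteasomal peptides are carried into the endoplasmic reticulum and loaded onto HLA heavy chains for display to T cells. Glucocorticoids are best known in airway epithelium for lowering inflammatory gene expression, and the GLP partner G9a has been described in mouse cells as a repressor of interferon genes.

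The promoters of the 4 members with the smallest p among those with a promoter sequence are shown, and were chosen without regard to their letters. Interferon genes are usually grouped by the letters marked in them. Each is the 150 bases before the transcription start from RefSeq on GRCh38.p14, 5' to 3' on the strand of the gene, with matches in capitals to the ISRE core (GAAA, then 2 bases of any kind, then GAAA again, or the same on the other strand, where it reads TTTC) in IFIT1 and ISG20 and to the GAS core (TTCNNNGAA) in IRF9 and IRF1.
IFIT1, chr10:89392473-89392622, plus strand: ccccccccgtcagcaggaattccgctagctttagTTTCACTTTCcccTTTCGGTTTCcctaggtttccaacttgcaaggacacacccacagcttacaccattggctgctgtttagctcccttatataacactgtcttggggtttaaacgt
IRF9, chr14:24161115-24161264, plus strand: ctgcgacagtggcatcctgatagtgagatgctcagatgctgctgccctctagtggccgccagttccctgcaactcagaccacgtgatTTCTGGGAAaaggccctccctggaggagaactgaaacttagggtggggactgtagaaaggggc
ISG20, chr15:88638866-88639015, plus strand: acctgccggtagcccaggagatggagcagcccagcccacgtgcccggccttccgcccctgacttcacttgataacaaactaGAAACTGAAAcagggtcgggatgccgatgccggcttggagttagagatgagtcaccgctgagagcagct
IRF1, chr5:132490774-132490923, minus strand: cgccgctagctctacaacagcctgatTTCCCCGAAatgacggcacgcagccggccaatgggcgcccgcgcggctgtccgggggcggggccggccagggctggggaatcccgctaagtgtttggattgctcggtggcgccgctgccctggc

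IFIT1 held ISRE letters at -116 to -107 and at -103 to -94 relative to its start, and ISG20 at -69 to -60. GAS letters lay at -63 to -55 in IRF9 and at -124 to -116 in IRF1. In windows of 250 bases before to 50 bases after the start, searched on both strands, 20 of the 29 member genes with a window held an ISRE core (69%), against 1195 of 27305 genes in the promoter table (4.38%). By role, the ISRE core was present in 14 of 16 effectors (87.5%), 1 of 5 regulators and sensors (20%) and 5 of 8 class I genes (62.5%). The GAS core was present in 10 of the 29 (34.5%), against 9.38% of all genes, and overlapped an ISRE core in 4 members, MX1, IFI27, IFITM1 and BST2. A match describes letters and is not a measured binding site. Only these letters and this spacing were searched, so a window without a match is not shown to lack the element.

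After 24 h of dexamethasone, 2 of the 26 tested genes were called higher by limma. This fits a linear model to each probe's log2 intensity, pools the spread across probes, and calls a probe at a Benjamini-Hochberg adjusted p under 0.05 over all tested probes. They were IFIT1, which binds viral RNA and blocks its translation, and HLA-E, a class I molecule recognised by natural killer cells. They make up 7.69% of the tested members, beside 4.72% of all tested genes called higher. Limma called 0 of the 26 lower, beside 5.34% of all genes. At an unadjusted p under 0.05 there were 2 members lower and 4 higher, beside 2518 of all 10964 tested genes in either direction. The median log2 change over the 26 genes was 0.08, with a range from -0.62 to 1.41, beside a median of -0.0083 over all tested genes.

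The 24 h arrays lay wholly above the 0 h arrays for 3 members (11.5%), IFIT1, IRF9 and HLA-E, where 8.26% of all genes did so. They lay wholly below for 2 members (7.69%), ISG20 and IRF1, where 9.1% of all genes did so. The 24 h array was higher in all 4 replicate pairs for 6 members (23.1%, beside 19.5% of all genes) and lower in all 4 pairs for 4 members (15.4%, beside 21.7%). Replicate numbers pair the arrays in these data, and with the replicate number as a block limma called 3 members higher, IFIT1, HLA-E and IRF9, where 7.99% of all genes were called higher. The same fit called 3 members lower, IRF1, ISG20 and TAP2, where 8.98% of all genes were called lower.

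**Figure D1:**
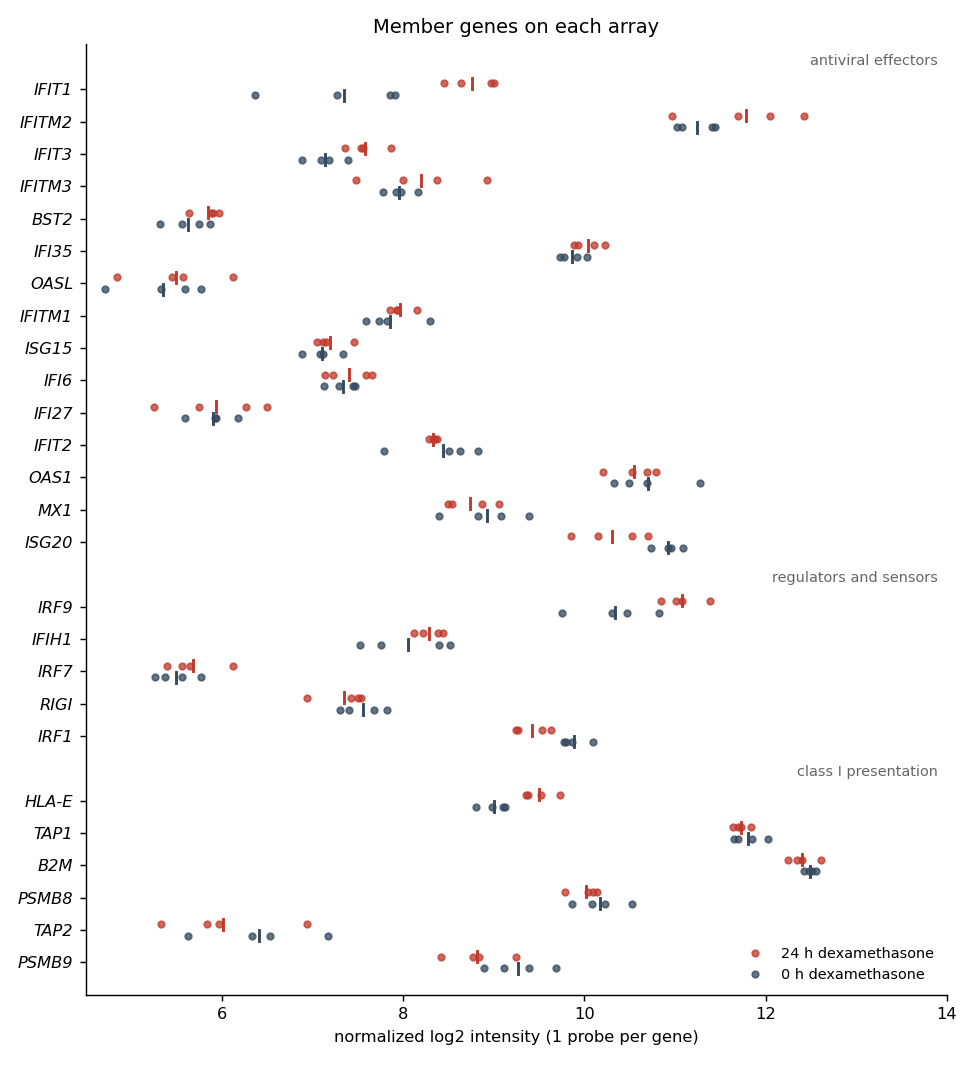
Normalized log2 intensity (horizontal) of each tested member gene on each of the 8 arrays, 24 h in red above 0 h in dark blue, with 1 dot an array and a tick at the mean of 4 arrays. Red and blue dots separate fully for IFIT1, HLA-E, IRF9, ISG20 and IRF1 and overlap in the other rows.

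**Figure D2:**
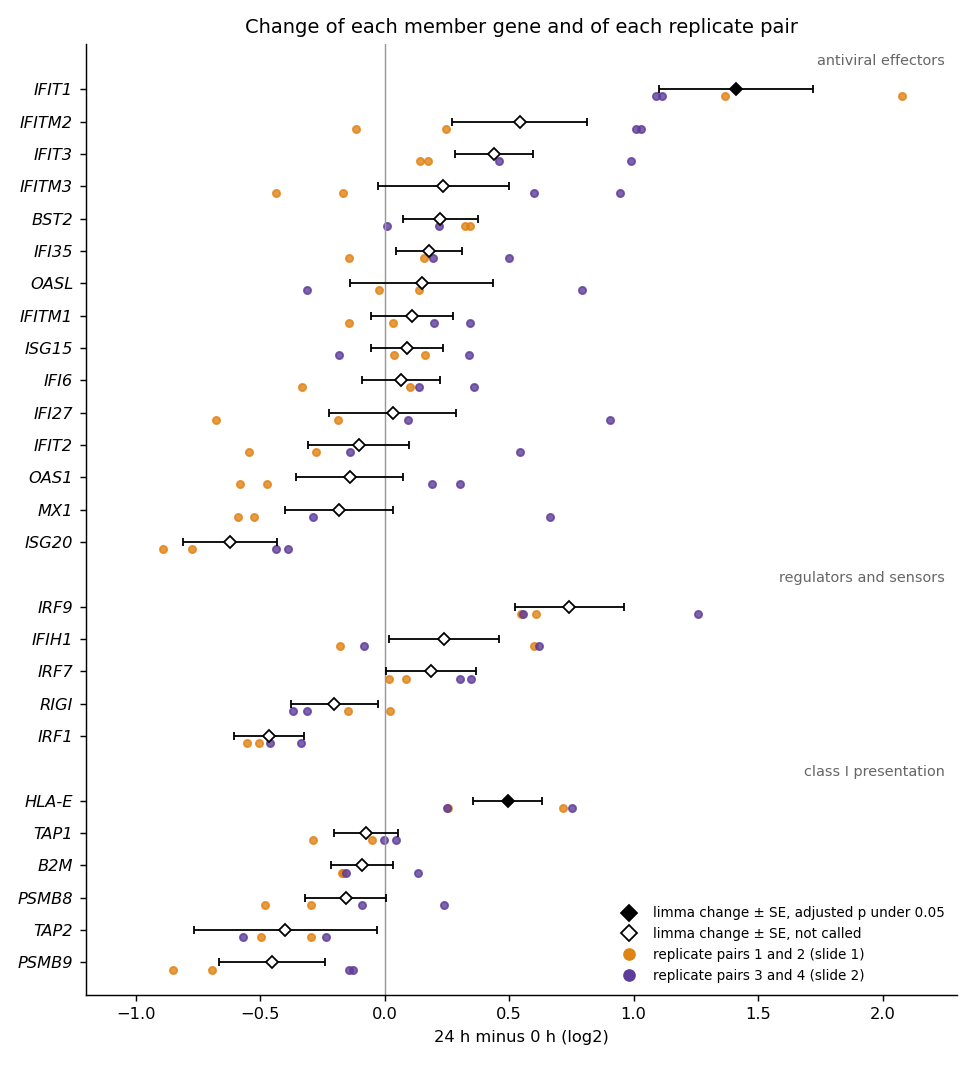
Log2 difference, 24 h minus 0 h, of each tested member, with the limma estimate and its SE as a diamond (filled where the adjusted p was under 0.05) and 1 dot for each replicate pair coloured by slide. IFIT1 at 1.41 and HLA-E at 0.49 are the filled diamonds, and the orange dots of slide 1 often lie left of the purple dots of slide 2.

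Among the 15 tested antiviral effectors, 1 was called higher and limma called 0 lower, beside 4.72% and 5.34% of all genes. At an unadjusted p under 0.05 there were 3 effectors, 1 of them lower, beside 2518 of all 10964 tested genes. The estimate was positive for 11 of the 15 and negative for 4, beside 5351 positive of all 10964 tested genes, and the median log2 change was 0.11. IFIT1 read log2 8.45, 8.64, 8.97 and 9.001 on the 24 h arrays of replicates 1 to 4, against 6.37, 7.28, 7.86 and 7.91 at 0 h. Each 24 h array was above each 0 h array, and the 0 h array of replicate 1 was the lowest of all. IFIT1 was 2.66-fold higher, a log2 change of 1.41 ± 0.31 (SE, limma adjusted p = 0.0165), with 2.08, 1.37, 1.11 and 1.09 in pairs 1 to 4. The call ended without 24 h replicate 3 (adjusted p = 0.0528) and was kept without any other single array. The 4 arrays at 24 h spread by an SD of 0.27 and those at 0 h by 0.72.

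The other IFIT genes, which stand beside IFIT1 on chromosome 10 and code for related RNA-binding proteins, did not pass. IFIT3 read log2 7.54, 7.36, 7.55 and 7.87 at 24 h, against 7.40, 7.19, 7.10 and 6.88 at 0 h. The difference was positive in each of the 4 pairs, though the times overlapped, and came to 0.44 ± 0.16 (limma adjusted p = 0.116). A dimmer IFIT3 probe gave 0.51 ± 0.21 (limma adjusted p = 0.182), and passed with the replicate block (adjusted p = 0.0404). IFIT2 read log2 8.35, 8.28, 8.37 and 8.33 at 24 h, against 8.63, 8.83, 8.51 and 7.79 at 0 h. Its 24 h arrays were close together, at an SD of 0.04, and its estimate of -0.10 ± 0.20 had a negative sign in 3 of 4 pairs. Whether IFIT1 differs in its change from IFIT2 and IFIT3 was not tested.

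ISG20, an exonuclease that degrades viral RNA, was the effector with the lowest estimate. It read log2 10.15, 9.85, 10.52 and 10.70 on the 24 h arrays of replicates 1 to 4, against 10.92, 10.74, 10.96 and 11.09 at 0 h. Each 24 h array lay below each 0 h array, and the pairs gave -0.77, -0.89, -0.44 and -0.39. The change of -0.62 ± 0.19 did not pass the limma test (adjusted p = 0.0675), and passed with the replicate block (adjusted p = 0.0168) and when 24 h replicate 4 was left out (adjusted p = 0.0386). It passed too with the slide as a block (adjusted p = 0.0167), without background correction (adjusted p = 0.0402) and with an offset of 50 (adjusted p = 0.0471). ISG20 and IFIT1 thus had opposite signs, with the ISRE letters shown above in both promoters.

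The IFITM proteins, which hinder the fusion of viruses with cell membranes, had positive estimates that did not pass. IFITM2 read log2 11.69, 10.97, 12.42 and 12.05 at 24 h, against 11.44, 11.08, 11.41 and 11.02 at 0 h. The 2 arrays of replicates 3 and 4 at 24 h stood above the rest, and the change was 0.54 ± 0.27 (limma adjusted p = 0.276). It passed without 24 h replicate 2 (adjusted p = 0.0395). IFITM3 at 0.24 ± 0.26 and IFITM1 at 0.11 ± 0.16 did not pass, and both changed sign under at least 1 alternative. The IFITM genes are close in sequence, so a probe may read more than 1 of them.

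ISG15, MX1 and OAS1 did not pass. ISG15, a ubiquitin-like protein joined to other proteins in infected cells, read log2 7.12, 7.05, 7.46 and 7.15 at 24 h, against 7.08, 6.89, 7.12 and 7.33 at 0 h. The groups overlapped, and the difference was 0.09 ± 0.14 (limma adjusted p = 0.789). MX1, a dynamin-like GTPase that blocks influenza virus, read log2 8.87, 8.50, 8.54 and 9.06 at 24 h, against 9.39, 9.08, 8.83 and 8.40 at 0 h. Its groups overlapped too, with 3 of 4 pairs negative and an estimate of -0.18 ± 0.22 (limma adjusted p = 0.697). OAS1, which makes the oligoadenylate that activates RNase L, gave -0.14 ± 0.21 on its brightest probe, and its 2 dimmer probes gave -0.15 and -0.07. None of these 3 was called, and their smallest adjusted p was 0.669. The remaining OAS1 probe, detected on 1 of 8 arrays and not tested, read 0.36 higher at 24 h, with 3 of 4 pairs positive.

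The remaining effectors lay between 0.03 and 0.22. IFI35, which binds NMI in the cytoplasm, differed by 0.18 ± 0.13, BST2, the tetherin that holds budding virus at the membrane, by 0.22 ± 0.15, and OASL, an OAS relative without synthetase activity, by 0.15 ± 0.29. IFI6, a mitochondrial and endoplasmic reticulum protein, differed by 0.07 ± 0.16 and IFI27, a mitochondrial protein, by 0.03 ± 0.25, and the sign of IFI6, IFI27 and OASL changed under at least 1 alternative. BST2 was positive in 4 of 4 pairs, but was detected on 4 arrays at 24 h and 2 at 0 h, and its largest level was log2 5.97, near the background. IFI27 was detected on 3 arrays at 24 h and 4 at 0 h, and OASL on 3 and 2, so their differences are read at the floor of the array.

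A further 5 effectors had probes but were not tested. At 24 h, IFI44L was detected on 1 array and IFI44 on 0, against 0 and 2 at 0 h. MX2, OAS2 and RSAD2, the last of which makes a nucleotide that ends viral RNA chains, were detected on 0 of 8 arrays. IFI44L read log2 5.56, 5.44, 4.91 and 4.89 at 24 h, against 4.71, 4.76, 4.66 and 4.68 at 0 h, so its times did not overlap, at levels mostly not above background. IFI44 read log2 5.30, 5.002, 4.90 and 5.28 at 24 h, against 6.04, 5.47, 5.19 and 4.76 at 0 h, with overlap and 3 of 4 pairs negative. The other 3 were not above background at either time and give no direction.

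Of the 5 tested regulators and sensors, limma called 0, where 4.72% of all genes were called higher and 5.34% lower. At an unadjusted p under 0.05 there were 2, beside 2518 of all 10964 tested genes. The replicate block called 1 in each direction, where 7.99% of all genes were called higher and 8.98% lower. The median change of the 5 was 0.19 (log2). IRF9, the DNA-binding subunit of the complex that reads the ISRE, read log2 10.84, 11.08, 11.38 and 11.01 on the 24 h arrays of replicates 1 to 4, against 10.30, 10.47, 10.82 and 9.75 at 0 h. The 24 h arrays lay above the 0 h arrays throughout, although the 24 h array of replicate 1 exceeded the 0 h array of replicate 3 by little. IRF9 differed by 0.74 ± 0.22, and did not pass (limma adjusted p = 0.0596), while it passed with the replicate block (adjusted p = 0.0169) and when 0 h replicate 3 was left out (adjusted p = 0.0269). It also passed without background correction (adjusted p = 0.0372) and with an offset of 50 (adjusted p = 0.0403). Its pairs gave 0.55, 0.61, 0.56 and 1.26, of which pair 4 was the highest through its low 0 h array.

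IRF1, a transcription factor that interferon gamma induces and whose promoter carries the GAS letters shown above, had the opposite sign. It read log2 9.27, 9.25, 9.63 and 9.53 at 24 h, against 9.77, 9.80, 10.09 and 9.86 at 0 h. All 24 h arrays were below all 0 h arrays, and the pairs agreed closely at -0.50, -0.55, -0.46 and -0.34. The change was -0.46 ± 0.14 and did not pass (limma adjusted p = 0.0686). It passed with the replicate block (adjusted p = 0.0199), with the slide as a block (adjusted p = 0.0193) and without background correction (adjusted p = 0.0401).

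IRF7, which drives interferon alpha genes, differed by 0.19 ± 0.18 near the background, detected on 3 arrays at 24 h and 2 at 0 h. An IRF7 probe detected on no array read -0.19, negative in all 4 pairs. The cytoplasmic sensors of viral RNA were IFIH1, also called MDA5, at 0.24 ± 0.22 and RIGI at -0.20 ± 0.18. Both overlapped between the times, with IFIH1 positive in 2 of 4 pairs and RIGI in 1 of 4, and neither was called (limma adjusted p = 0.599 and 0.576).

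**Figure D3:**
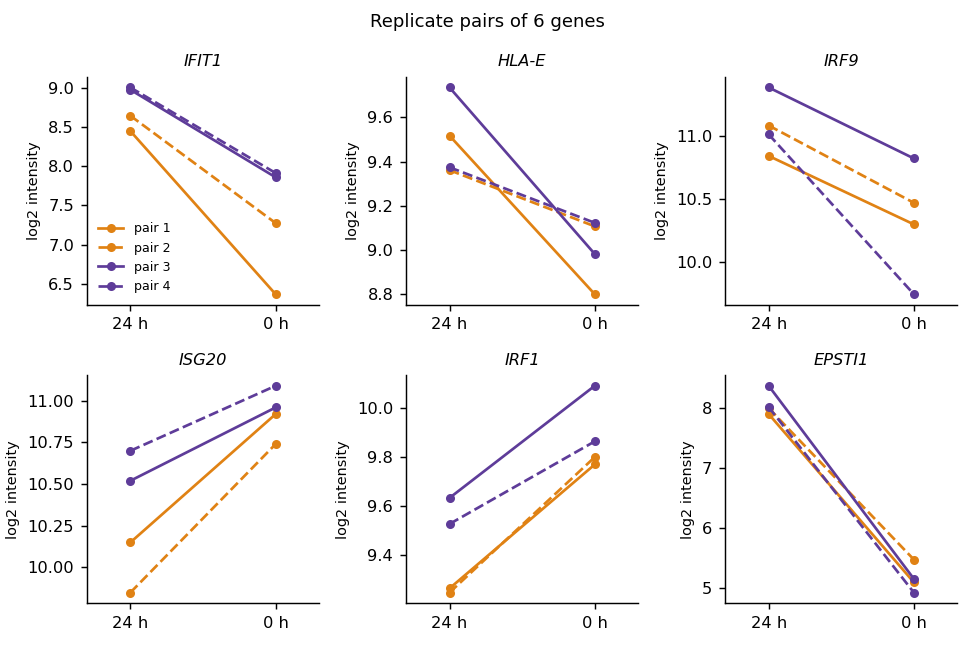
Log2 intensity (vertical, a scale of its own in each panel) at 24 h and 0 h for 6 genes, with each line joining the arrays of 1 replicate pair, orange for slide 1 and purple for slide 2. All 4 lines run one way in each panel, with 24 h higher for IFIT1, HLA-E, IRF9 and EPSTI1 and lower for ISG20 and IRF1.

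Of the 6 tested class I presentation genes, 1 was called higher and limma called 0 lower, beside 4.72% and 5.34% of all genes. None of the lower ones had an unadjusted p under 0.05. The estimate was negative for the other 5, beside 5613 of all 10964 tested genes, and the median was -0.12. HLA-E read log2 9.52, 9.36, 9.74 and 9.37 on the 24 h arrays of replicates 1 to 4, against 8.80, 9.11, 8.98 and 9.12 at 0 h. Each 24 h array was above each 0 h array, with larger differences in pairs 1 and 3 (0.72 and 0.75) than in pairs 2 and 4 (0.25 and 0.25). HLA-E rose by 0.49 ± 0.14 (limma adjusted p = 0.0488). The call lay at the threshold, ended on leaving out any 1 of the 8 arrays (adjusted p = 0.0563 to 0.143), and ended with median scaling (adjusted p = 0.119). HLA class I genes are near-identical in parts, and which of them this probe can read was not tested.

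The peptide supply genes had estimates below 0. PSMB9, a catalytic subunit of the immunoproteasome, read log2 8.83, 8.42, 8.77 and 9.25 at 24 h, against 9.68, 9.11, 8.90 and 9.39 at 0 h. It was lower in each of the 4 pairs, more so in pairs 1 and 2, and the difference of -0.45 ± 0.21 did not pass (limma adjusted p = 0.243). A PSMB9 probe near the background gave -0.07 ± 0.23. PSMB8, its partner subunit, had 3 probes at -0.16, -0.14 and -0.22, all tested, none called, each lower in 3 of 4 pairs. The remaining PSMB8 probe was above background on 2 of the 24 h arrays and none of the 0 h arrays and was not tested. It read 0.21 higher at 24 h, with all 4 pairs positive.

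TAP1 and TAP2 form the peptide transporter of the endoplasmic reticulum. TAP2 read log2 5.83, 5.33, 5.97 and 6.94 at 24 h, against 6.33, 5.63, 6.53 and 7.17 at 0 h. The arrays of the times overlapped widely because replicates differed more than times did, but each pair was negative, at -0.50, -0.29, -0.57 and -0.23. The change of -0.40 ± 0.37 was thus far from passing without pairing (limma adjusted p = 0.6) and passed with the replicate block (adjusted p = 0.0441). TAP1, at log2 11.64 to 11.84 at 24 h and 11.65 to 12.02 at 0 h, differed by -0.07 ± 0.13. B2M, the light chain of all class I molecules and the brightest member, lay at log2 12.25 to 12.61 at 24 h and 12.42 to 12.55 at 0 h, and differed by -0.09 ± 0.12 (limma adjusted p = 0.743). HLA-C, a classical heavy chain, was detected on 0 of 8 arrays by its 1 probe, so no change was tested. Whether that probe matches the HLA-C allele of these cells was not examined, so HLA-C is not shown to be absent.

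The 15 tested members with an ISRE core in a promoter window had a median log2 change of 0.07, with 9 positive and 1 called. The 6 tested members whose windows lacked these exact letters had a median of -0.17, with 2 positive and 0 called. Of all tested genes, 4.72% were called higher and 5.34% lower. HLA-E, the other called member, had no promoter window and is in neither group. The same holds for IFIT2, IFITM2, IRF7 and OASL, which were tested and not called. ISG15 with ISRE letters at -113 to -98, and IFI6 with ISRE letters at 3 places, were among those not called. The ranges were -0.62 to 1.41 with the letters and -0.46 to 0.74 without, so they overlapped widely.

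The slide was read from the array names, whose leading number is shared by replicates 1 and 2 and differs for replicates 3 and 4. Replicates 3 and 4 are thus called slide 2 and replicates 1 and 2 slide 1, each slide holding both times. The median change of the 26 members was 0.24 on slide 2 and -0.09 on slide 1, and by pair it was -0.14, -0.16, 0.14 and 0.28 in pairs 1 to 4. A higher change on slide 2 than on slide 1 was found for 21 of the 26 members (80.8%), against 51.7% of all tested genes. For the effectors the medians were 0.25 on slide 2 and -0.05 on slide 1, for the regulators and sensors 0.27 and 0.05, and for class I genes 0.00484 and -0.28.

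A term for the difference between slides, added after the slide values had been seen, was called by limma for 0 of the 26 members and for 0% of all genes. At an unadjusted p under 0.05 it picked 3 members, beside 7.72% of all genes. They were IFITM3, with 0.77 on slide 2 and -0.30 on slide 1 (limma adjusted p = 0.55), IFI27, with 0.50 on slide 2 and -0.43 on slide 1 (limma adjusted p = 0.584), and IFITM2, with 1.02 on slide 2 and 0.07 on slide 1 (limma adjusted p = 0.627). MX1, OAS1 and IFIT2 likewise had positive values on slide 2 (0.19, 0.25 and 0.20) and negative ones on slide 1 (-0.56, -0.53 and -0.41), with no call. For the genes whose arrays did not overlap, which fixes the sign on each slide, the sizes were as follows, with IFIT1 at 1.10 on slide 2 and 1.72 on slide 1, HLA-E at 0.50 and 0.49, IRF9 at 0.91 and 0.58, ISG20 at -0.41 and -0.83, and IRF1 at -0.40 and -0.53.

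Relative to the mean of their own time, the members' median deviation was -0.12, -0.16, 0.17 and 0.12 on the 24 h arrays of replicates 1 to 4, against -0.01, -0.02, 0.05 and -0.03 on the 0 h arrays. On the 24 h array of replicate 2, 3 of the 26 members were above the 24 h mean, and on that of replicate 4, 19 were. Within a time the members spread by a median SD of 0.28, against 0.24 over all tested genes. The share of members with a higher change on slide 2 was not tested itself, and no single member passed the slide term.

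**Figure D4:**
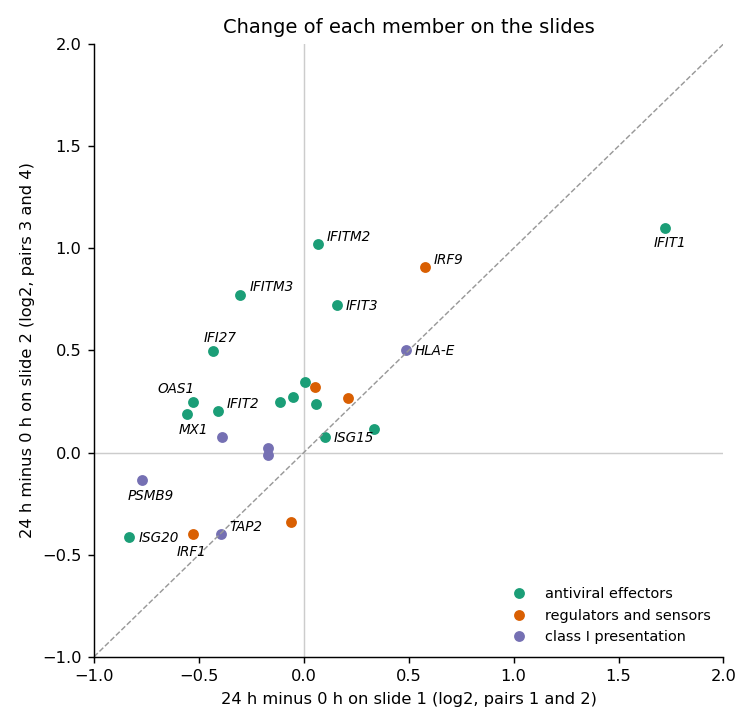
Log2 difference, 24 h minus 0 h, of each tested member on slide 2 (vertical, pairs 3 and 4) against slide 1 (horizontal, pairs 1 and 2), coloured by role, with a dashed line of equal change. Points above the line, 21 of 26, had a higher change on slide 2, and IFIT1 lies far to the right with 1.72 on slide 1 and 1.10 on slide 2.

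The interferon genes themselves were mostly not detected. Of 24 interferon and receptor genes with a probe 7 were tested. Limma called 0 of these 7, and 0 had an unadjusted p under 0.05, beside 2518 of all 10964 tested genes. IFNA8 at -0.25, IFNAR2, a chain of the type I receptor, at -0.15, and IFNA10 at -0.16 had limma adjusted p of 0.365, 0.656 and 0.668. The genes detected on no array included IFNB1, IFNG, IFNL1, IFNL2 and IFNL3. Interferon alpha genes are close copies, so a single IFNA probe may read more than 1 of them.

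Of 19 tested genes of interferon induction and signalling, 1 was called higher and 1 lower, where 4.72% of all genes were called higher and 5.34% lower. PIAS1, a SUMO ligase, rose by 0.62 ± 0.11 (limma adjusted p = 0.00584), at log2 11.28 to 11.45 at 24 h and 10.70 to 10.75 at 0 h. CGAS, the sensor of cytoplasmic DNA, read log2 6.51, 6.68, 6.39 and 6.67 at 24 h, against 7.49, 7.502, 7.04 and 7.14 at 0 h. Each 24 h array of CGAS was below each 0 h array, and it fell by 0.73 on the log2 scale (SE 0.15, limma adjusted p = 0.0118). Without background correction the log2 change of CGAS was -0.42 (adjusted p = 0.0231). The kinases JAK2 (0.53) and JAK1 (0.86) did not pass (limma adjusted p = 0.0531 and 0.0589) and were called with the replicate block (adjusted p = 0.0196 and 0.00299). IKBKE, a kinase that activates IRF3, differed by -0.64 (limma adjusted p = 0.0652, and adjusted p = 0.00936 with the block).

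Among 30 tested interferon-stimulated genes outside the member list, limma called 0 lower, beside 5.34% of all genes. There were 2 lower at an unadjusted p under 0.05. Of the 30, 1 was called higher, beside 4.72% of all genes. That gene was EPSTI1, first described in epithelial cells cultured with stroma, and it read log2 7.89, 7.99, 8.36 and 8.01 at 24 h, against 5.09, 5.47, 5.14 and 4.92 at 0 h. The groups were far apart, with all 4 arrays detected at 24 h and 1 of 4 at 0 h. EPSTI1 rose by 2.91 ± 0.16 (limma adjusted p = 2.93e-06), measured from about the background at 0 h. Its size depends on the background step, at 1.55 without background correction (adjusted p = 8.75e-06) and 2.11 with an offset of 50 (adjusted p = 1.99e-06), and it was called in each. PLSCR1, a phospholipid scramblase, at -0.46, GBP1, a guanylate-binding protein, at 0.88, and PARP9, a partner of DTX3L, at 0.49 did not pass (limma adjusted p = 0.0557, 0.0979 and 0.181), and passed with the block (adjusted p = 0.0298, 0.00608 and 0.0425). The list's median was -0.0025, beside -0.0083 for all genes. A dimmer probe of SP110, a nuclear body protein, was called higher at 0.71 (limma adjusted p = 0.0335), while its brightest probe was not, at 0.20.

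Among 21 other tested antigen presentation genes, 1 was called lower and limma called 0 higher, beside 5.34% and 4.72% of all genes. There was 1 higher at an unadjusted p under 0.05. HLA-DMB, the chain of the class II peptide exchange factor, read log2 7.25, 7.34, 8.46 and 8.37 on the 24 h arrays of replicates 1 to 4, against 9.15, 9.45, 10.45 and 9.82 at 0 h. The times did not overlap, and slide 2 was above slide 1 at both times. It changed by -1.87 ± 0.34 (limma adjusted p = 0.00671), and its pairs gave -1.90, -2.12, -2.00 and -1.45. HLA-DMA, its partner chain, differed by 0.07 ± 0.20. Of the class II genes HLA-DRA, HLA-DPA1, HLA-DPB1, HLA-DQB1 and HLA-DRB1 were detected on no array. Whether the probes of these class II genes match the alleles of these cells was not examined. MICB, a ligand of natural killer cells, at -0.51, and PSMB6, the constitutive proteasome subunit that PSMB9 replaces, at -0.42 did not pass (limma adjusted p = 0.0669 and 0.0996) and passed with the block (adjusted p = 0.0261 and 0.0265). PSME2, a subunit of the proteasome activator, differed by -0.44 (limma adjusted p = 0.205). The estimate was negative for 16 of the 21, beside 5613 of all 10964 tested genes. The median was -0.20, which like the median of -0.12 for the member class I genes lies below that of all genes. A shift of either list was not tested.

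**Figure D5:**
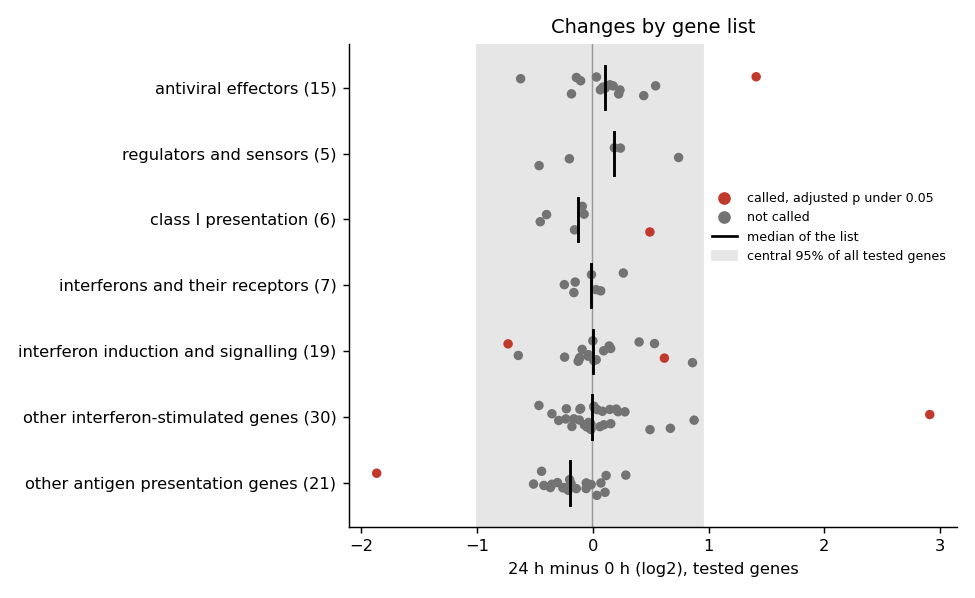
Log2 difference, 24 h minus 0 h, of each tested gene of the member roles and of the other interferon and antigen presentation lists, 1 dot a gene, red where called, with a bar at the list median and a grey band for the central 95% of all tested genes, from -0.997 to 0.951. IFIT1 and EPSTI1 lie right of the band and HLA-DMB left of it, and all other genes of these lists lie within it.

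The calls of PIAS1, CGAS, EPSTI1 and HLA-DMB were each kept on leaving out any 1 array. PIAS1 and CGAS lost theirs on slide 2 alone (limma adjusted p = 0.111 and 0.149), and PIAS1 on slide 1 alone (limma adjusted p = 0.0654).

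Across the series, 13897 to 14797 of 22011 probes were detected per array, with median intensities of 137.5 to 272.7, and all 4 tested genes of a hormone check (ZBTB16, TSC22D3, SGK1 and PER1) were called higher, by 1.08 to 4.14 on the log2 scale. EHMT1, the target of the hairpin, lay near the background at log2 5.68 to 5.81 at 24 h and 5.13 to 5.57 at 0 h, and differed by 0.36 ± 0.13 (limma adjusted p = 0.13), which says nothing of depletion because every array carries the hairpin. Of 9 A549 lung epithelial markers, 8 were detected on all 8 arrays. Their summed intensity ran from 125600 to 131800 at 24 h and from 104800 to 116600 at 0 h. Of the 9, 5 (KRT8, KRT18, CDH1, CPS1 and MUC1) were called higher, beside 4.72% of all genes. The median log2 change over the 9 was 0.69. The estimate was negative for 2 of the 9, the lowest at -0.46. With the replicate block limma called 5 of the 9 higher and 1 lower, beside 7.99% and 8.98% of all genes. Of 7 leukocyte markers, PTPRC, CD3D, CD3E and FCGR3A were detected on no array and CD14, CD68 and MS4A1 on all 8, of which limma called 0, with 1 at an unadjusted p under 0.05, and the summed intensity of the 7 was 467.5 to 715 at 24 h and 665.8 to 825.2 at 0 h. Of 5 markers of plasmacytoid dendritic cells, the main interferon producers, CLEC4C and GZMB were detected on none, 1 was detected on all 8 arrays, and limma called 0 of the 2 tested, with 0 at an unadjusted p under 0.05. The summed intensity of the 5 was 245 to 278.6 at 24 h and 269.2 to 351.1 at 0 h. Of 8 fibroblast markers, 3 were detected on all 8 arrays and 3 on none, with DCN called higher and COL1A1 lower, and the sum was 682.8 to 945.6 at 24 h and 637 to 1210 at 0 h. Of 6 endothelial markers, 1 was detected on all 8 arrays and 4 on none, with 0 of 2 tested called by limma, 0 at an unadjusted p under 0.05, and sums of 250.4 to 320.3 at 24 h and 282.8 to 307.9 at 0 h. The part of any of these markers in the members' values was not tested. In such bulk RNA a lower value from fewer cells and one from less RNA per cell cannot be told apart.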

How the data were processed

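Total RNA of 8 A549 samples was hybridised to a bead array. The deposited raw table gives, per the file headers, a mean bead intensity for each probe and array, and a detection p-value in the same deposited table. That table has 25204 rows. A normalized table of log2 values, also deposited, covers 22011 of them. Limma is named in the submitters' processing notes with no version, the steps used are not given there, and these values served as an alternative.

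Intensities were background-corrected with nec of limma 3.58.1 (R 4.3.3, offset 16), with the background estimated through the detection p-values, and the 22011 probes were then quantile normalized and log2 transformed. Probes with a detection p-value under 0.05 on at least 4 of 8 arrays (14533) were tested for 24 h against 0 h with lmFit and eBayes, with Benjamini-Hochberg adjustment over all of them and a threshold of 0.05. A gene is its brightest tested probe. Probe symbols came from the platform annotation (19759 probes with 1 symbol, 2252 with none) and 19741 were checked through Entrez identifiers in a RefSeq table of GRCh38.p14. Changes are log2 differences ± SE, and the number of arrays limits their precision. The limma fit without a block was tested on simulated data. The simulated noise was independent between arrays, so that test cannot check fits that use the pairing or the slides.

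Same-numbered arrays deviated together (r = 0.463, 0.454, 0.367 and 0.454 across probes for replicates 1 to 4) and each pair shares a slide, so a fit with the replicate number as a block is printed where it changes a call. Promoter windows were searched for 2 motifs. All members with a probe are named, and of the other lists every called gene and up to 3 genes with the smallest p. The members and lists were chosen with earlier results of these data known. Of 52 groups of 4 arrays (26 members at 2 times), none held an array whose gap to its neighbour passed 0.829 of the range.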

Additional observations from a re-analysis of the deposited data

How the results depend on the processing

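Of 20 alternatives, several moved the number of called members, which was 2 higher and 0 lower. The replicate block called 3 higher and 3 lower, the slide as a block 2 and 2, quantile normalization without background correction 3 and 2, and an offset of 50 called 3 and 1, with IRF9 the added higher gene each time there were 3. The 2 lower genes with the slide as a block were IRF1 and ISG20. Slide 1 alone called 0 higher, and slide 2 alone and median scaling called 1 higher each. Leaving out each array in turn gave 0 to 2 higher and 0 to 1 lower, with 0 higher without 24 h replicate 3 and ISG20 lower without 24 h replicate 4. The members' median was 0.08, and was 0.24 on slide 2 alone and -0.09 on slide 1 alone, while leaving out single arrays gave -0.04 to 0.13. Over all 10964 tested genes, 518 were called higher and 585 lower (1103 in all). The replicate block called 876 higher and 985 lower (1861 in all), and the slide as a block 720 and 783. Without background correction there were 612 higher and 679 lower. An offset of 50 gave 581 and 628, and median scaling 454 and 537. Leaving out single arrays gave 760 to 1027 calls in all, slide 1 alone 494 and slide 2 alone 402. The slide fits hold fewer arrays, and for the other moves the cause was not tested. IFIT1 was called in 19 of 21 fits, the exceptions being slide 1 alone (adjusted p = 0.0547) and the fit that left out 24 h replicate 3 (adjusted p = 0.0528), and HLA-E in 10 of 21. The sign was the same in every fit for 16 of the 26 tested members and changed in at least 1 fit for the other 10, none of them called. Probes near the background (BST2, IFI27, IRF7, OASL and TAP2) limit what can be read of those genes.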
